A study of Mus musculus with 3 samples.

Results

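Adamts19 was followed as a single gene across the cells of the newborn mouse aortic root, as 1 of 36167 features in the deposited gene tables. It was chosen by measured values, namely its pattern over cell classes: its raw molecule counts were summed per pool and class, the share of nuclei with at least 1 molecule was taken, and the genes that rose with it inside valve interstitial nuclei were looked for. Its levels by class are therefore given as a description, with no test. The samples were 3 pools of flash-frozen aortic valve structures from mouse pups at postnatal day 1, each made from 22 to 24 aortic roots. All 3 pools form 1 group, come from the strain RBRC11098, which carries the EGFP allele tm1.1(EGFP)Skom of the tendon gene Scx on a B6.Cg background, with its zygosity not stated, and there is no group without that allele. Nuclear RNA was sequenced with a 10x Genomics Multiome kit, which tags each captured molecule with a unique molecular identifier (UMI). Whether the pools came from separate litters is not stated. Both groups of nuclei in a test came from the same pools, with pool as a block. The p-values therefore measure how consistent the difference within a pool was over these 3 pools.

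ADAMTS19 belongs to the ADAMTS family of secreted metalloproteases with thrombospondin repeats, many of which cut or organise the extracellular matrix. Loss of the gene is known to cause progressive heart valve disease in people and aortic valve defects in mice. Valve interstitial cells are the mesenchymal cells that fill the leaflets and make their matrix of collagen, proteoglycan and elastic fibre, while endothelial cells cover the surface. The gene lies on mouse chromosome 18. In the GRCm38.p6 annotation its nearest protein-coding neighbours are Isoc1 upstream and Minar2 downstream, all 3 on the plus strand. That annotation was used for gene order only, since the counts were made on GRCm39.

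The pools held 10580, 5949 and 4611 deposited nuclei with 49918251, 25341316 and 21254247 UMIs. Nuclei with at least 1000 UMIs and at most 5% mitochondrial UMIs numbered 13130 after 889 doublets were removed, with median UMI counts of 4288, 4771 and 3346 per nucleus. Mitochondrial shares above 5% removed 28.6%, 41.8% and 14.1% of the deposited nuclei of pools 1, 2 and 3. Among the analysed nuclei, 62, 48 and 43 carried a barcode that also occurred in another pool. The nuclei formed 27 clusters, of which 23 took the name of 1 of 11 marker classes and 4 stayed unnamed. No cell type is assigned to a nucleus by the labels, so each rebuilt class carries the word "like". At the edges of the filters the Adamts19 level (CPM, the gene's UMIs scaled to an equal total) was 183 ± 86.9 in nuclei from 500 to just under 1000 UMIs and 233 ± 79.0 in those just above, and was 340 ± 61.1 in nuclei of 4% to 5% mitochondrial UMIs and 228 ± 17.2 in those of 5% to 6%.

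Adamts19 was highest in valve interstitial-like nuclei. In this class of 1570 nuclei the summed level was 2189 CPM in pool 1, 1639 in pool 2 and 2287 in pool 3, a mean of 2038 ± 350 CPM (SD, n = 3 pools). Fibroblast-like nuclei, 926 in all, held 377, 392 and 393 CPM. Cardiomyocyte-like nuclei, 2315 in all, held 229, 253 and 207 CPM. None of these ranges overlapped, so that every pool placed valve interstitial-like nuclei first, then fibroblast-like and then cardiomyocyte-like nuclei among the 9 classes that had 20 or more nuclei per pool. Within a pool the valve interstitial-like level was 5.27 ± 0.942 times the fibroblast-like level and 9.02 ± 2.32 times the cardiomyocyte-like level.

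The remaining classes were far lower and, for the most part, could not be placed in order. Macrophage-like nuclei held 55.5 ± 6.84 CPM, pericyte-like nuclei 45.9 ± 37.3, lymphatic endothelial-like nuclei 39.3 ± 30.4 and endothelial-like nuclei 27.8 ± 13.6, and each of these ranges overlapped the next. Mesothelial-like nuclei followed at 13.7 ± 2.46 CPM, a range that overlapped that of endothelial-like nuclei. Smooth muscle-like nuclei, 2216 in all, were lowest at 7.29, 10.3 and 7.95 CPM, below every pool of the mesothelial-like class. Melanocyte-like nuclei, 67 in all, held 21.2, 41.7 and 280.7 CPM, and adipocyte-like nuclei, 58 in all, held 7 Adamts19 UMIs, too few in both for a place in the order. Fewer molecules per nucleus and fewer expressing nuclei cannot be told apart in these sums. The valve interstitial-like level was 249 ± 78.3 times the smooth muscle-like level.

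**Figure D1:**
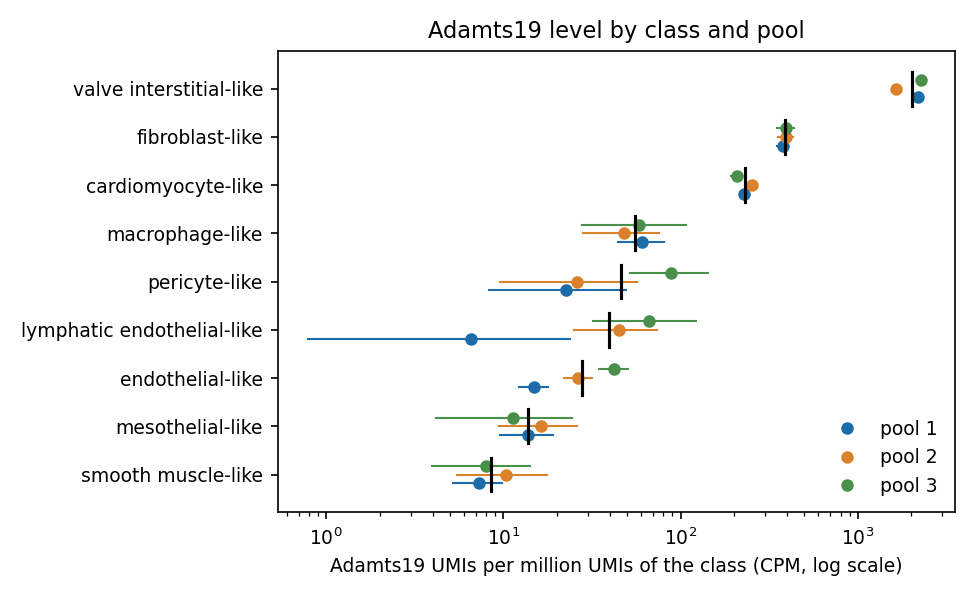
Adamts19 level (CPM, log scale) in the 9 classes that had 20 or more nuclei per pool. Points are the 3 pools, thin lines their exact 95% Poisson intervals (counting error only) and black bars the means; valve interstitial-like nuclei lie between 1639 and 2287 CPM and smooth muscle-like nuclei between 7.29 and 10.3 CPM.

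Several low class means rested on a handful of nuclei. In the endothelial-like class of 2742 nuclei, 3 nuclei held 25.8% of the 345 Adamts19 UMIs, and in the lymphatic endothelial-like class 3 nuclei held 63.0% of 27. Of the 2742 endothelial-like nuclei, 14 carried 5 or more Adamts19 UMIs. No smooth muscle-like nucleus did, and 65 UMIs were spread over 2216 nuclei with at most 4 in any. In contrast, 3 nuclei made up 2.38% of the 12689 UMIs in valve interstitial-like nuclei, 5.39% of the 1466 in fibroblast-like nuclei and 3.61% of the 3186 in cardiomyocyte-like nuclei. Signal in the 3 highest classes was therefore spread over many nuclei, with 5 or more UMIs in 41.9%, 11.7% and 8.12% of them.

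The share of nuclei with an Adamts19 UMI was taken next. To remove the effect of depth, each nucleus was thinned at random to 1000 UMIs. An Adamts19 UMI was then present in 51.8%, 50.8% and 57.1% of valve interstitial-like nuclei, 24.2%, 24.0% and 22.1% of fibroblast-like nuclei, and 16.7%, 19.4% and 16.5% of cardiomyocyte-like nuclei, with no overlap between the 3 ranges. Without thinning the means were 68.5%, 44.2% and 45.4%, which put cardiomyocyte-like above fibroblast-like nuclei, at median depths of 3610.5, 3712 and 5451 UMIs. For comparison, in smooth muscle-like nuclei, the class with the lowest level, the thinned share was 0.598% ± 0.383 at a median depth of 3332 UMIs.

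Next, 3 further genes that lead the main valve interstitial-like cluster were set beside Adamts19. They were picked for the largest fold of that cluster over all other nuclei, so low levels in other classes follow in part from that choice. Each gene is given relative to its own level in valve interstitial-like nuclei. Adamts19 stood at 19.0% of that level in fibroblast-like nuclei, while Rmst, a long non-coding RNA, stood at 0.0735%, Pcdh15, a protocadherin, at 0.356% and Rnf43, a ubiquitin ligase that removes Wnt receptors, at 0.126%. In cardiomyocyte-like nuclei Adamts19 stood at 11.3%, against 0.314% for Rmst, 0.511% for Pcdh15 and 1.65% for Rnf43. In mesothelial-like nuclei the mean of all 3 stood above that of Adamts19 (0.674%), with Rmst at 1.20% from pools of which 1 held none, Rnf43 at 2.39% and Pcdh15 at 32.6% (915 ± 166 CPM). In endothelial-like nuclei Adamts19 stood at 1.37%, Rmst at 2.76%, Rnf43 at 2.85% and Pcdh15 at 0.912%. In smooth muscle-like nuclei the 4 genes stood close together, at 0.418%, 0.344%, 0.314% and 0.639%. Minar2, the next gene downstream, stood at 21.7% in fibroblast-like and 20.3% in cardiomyocyte-like nuclei, from a valve interstitial-like level of 38.9 ± 6.80 CPM.

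Valve interstitial-like nuclei held 60.7% ± 8.94 of all Adamts19 UMIs of a pool although they made up 1570 of 13130 nuclei. Cardiomyocyte-like nuclei held 16.2% ± 4.23, and fibroblast-like nuclei 7.23% ± 1.68. Unnamed clusters held a further 12.7% ± 11.3. Of their 2385 Adamts19 UMIs, 1709 lay in 1 cluster of 287 nuclei with a median of 13589 UMIs, of which 202 came from pool 3. That cluster was led by Mylk4 and Kcnab1, which also lead a smooth muscle-like cluster, and carried 198 ± 60.7 CPM of Adamts19.

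Within the valve interstitial-like class Adamts19 differed between its 2 large clusters. The first, of 927 nuclei led by Rmst, Pcdh15 and Rnf43, held 3007, 2414 and 3139 CPM. The second, of 613 nuclei led by Ctnna2, Abi3bp and Col11a1, held 483, 353 and 559 CPM. The ranges were far apart, and the second cluster lay close to the fibroblast-like level. After thinning, 72.3% ± 2.01 of nuclei of the first cluster and 24.3% ± 3.16 of the second had an Adamts19 UMI. Adamts19 itself was kept out of the genes used for clustering. A small cluster of 30 nuclei with cell division genes was too small to place, at 1615 ± 1415 CPM.

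Cardiomyocyte-like clusters also differed. A cluster of 199 nuclei led by Ryr3, Cpne5 and Fgf12 held 609, 573 and 339 CPM, above every pool of the main cardiomyocyte-like cluster of 1572 nuclei, which held 202, 241 and 218 CPM. A cluster of 505 nuclei led by Erc2, Lrrc4c and Kcnh7 was lower still at 144, 165 and 154 CPM. That cluster took its name from 6 of 8 cardiomyocyte markers, but none of them was among its top 10 genes, where 1 neuron marker, Snap25, was. The thinned shares were 36.1% ± 2.70, 16.7% ± 1.85 and 13% ± 3.67. An endothelial-like cluster of 434 nuclei led by Kcnc2 and Wnt9b held 16.5 ± 4.87 CPM. Another of 255 nuclei, led by Dlgap2 and Cntnap5a, held 47.0, 47.9 and 197 CPM, with 61.5% of its 109 UMIs in 3 nuclei. A cluster of 247 endothelial-like nuclei led by Pcdh17 and Aplnr held 35.5, 125 and 36.7 CPM, with 57.5% of its 87 UMIs in 3 nuclei. That cluster passed 7 of 8 endothelial markers, but none was among its top 10 genes, where 1 adipocyte marker, Fabp4, was. In 1 unnamed cluster of 847 nuclei led by Clca3a2 and Pi15 the level was 17.9 ± 5.66 CPM.

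**Figure D2:**
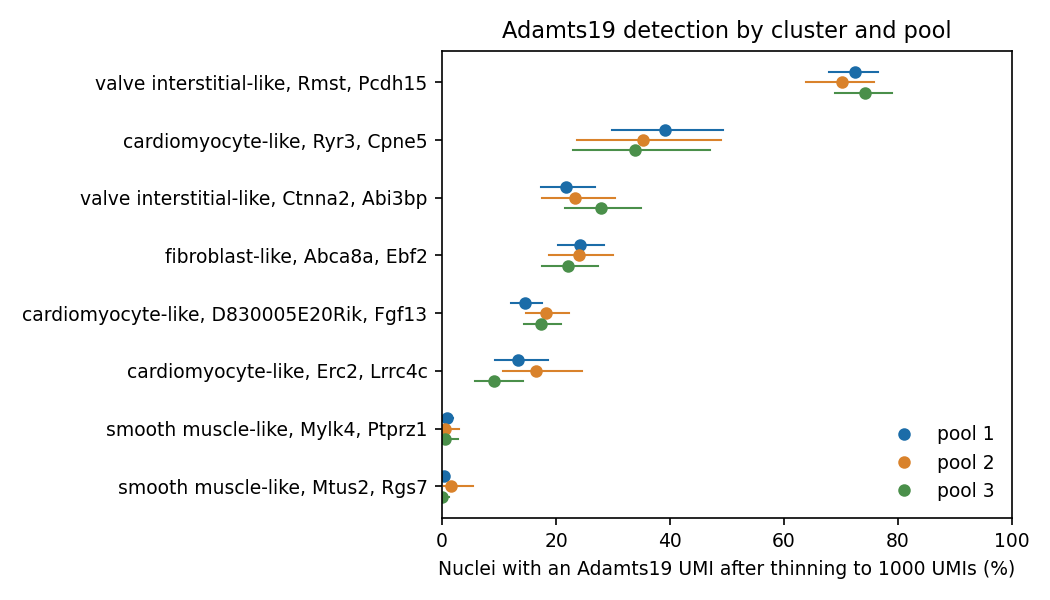
Share of nuclei with an Adamts19 UMI after thinning to 1000 UMIs, in the valve interstitial-like, fibroblast-like, cardiomyocyte-like and smooth muscle-like clusters of at least 100 nuclei, each named by its class and 2 leading genes. Points are pools and lines Wilson 95% intervals; the Rmst cluster lies at 72.3% on average, the Ryr3 cluster at 36.1% and both smooth muscle-like clusters under 1% on average.

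Even inside the valve interstitial-like class, Adamts19 was very uneven from nucleus to nucleus. The median was 3 UMIs per nucleus in each pool, the upper quartile 12, 10 and 10, and the highest nucleus 114, 77 and 79. No Adamts19 UMI was found in 33.0%, 31.9% and 29.7% of nuclei. At an equal depth of 1000 UMIs the variance was 4.74, 3.79 and 4.48 times the mean. At that depth 48.2%, 49.2% and 42.9% of nuclei had no UMI, where a Poisson spread around the same mean would leave 13.6%, 19.6% and 10.5%.

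Over the 9 classes, the genes whose levels ran most like that of Adamts19 were ranked by Pearson's r of log2(CPM + 5) among 7220 genes with at least 50 CPM in some class. Eda, a signalling ligand of the tumour necrosis factor family, came first at r = 0.91, and Tbx20, a heart transcription factor whose variants cause valve and septal defects, second at 0.90. Cadps followed at 0.89, and Nkd2, Scube2, Ano4, Tmem132c, Kirrel3os, Garnl3 and Rab11fip2 lay between 0.86 and 0.88. These are descriptions over 9 class means that share libraries and depth. Eda held 1155 ± 45.5 CPM in valve interstitial-like, 863 ± 132 in fibroblast-like and 392 ± 52.4 in cardiomyocyte-like nuclei, and 167 ± 35.4 in smooth muscle-like nuclei. Tbx20 held 3150 ± 176, 1471 ± 182, 1422 ± 50.9 and 205 ± 18.1 CPM in the same classes. Cadps, Nkd2, Tmem132c, Kirrel3os and Garnl3 also had their highest mean in valve interstitial-like nuclei, while Scube2, Ano4 and Rab11fip2 did not. Scube2 and Ano4 had higher means in cardiomyocyte-like nuclei (70.6 and 276 CPM) than in valve interstitial-like nuclei (62.4 and 214 CPM). Rab11fip2 was nearly flat, with class means from 72.1 CPM in mesothelial-like to 96.6 CPM in fibroblast-like nuclei.

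The next question was whether Adamts19 in valve interstitial-like nuclei varied with sex, cell division or detection of EGFP RNA. Sex was called from Xist and 4 Y-linked genes, which gave 648 female and 651 male nuclei. Female nuclei held 1961, 1919 and 2338 CPM in pools 1 to 3, and male nuclei 2306, 1441 and 2540. The ranges overlapped, and the female minus male difference was 0.02 on the log2 scale (SE 0.10, edgeR quasi-likelihood test with pool as a block, Benjamini-Hochberg adjusted p = 0.996). Of 9237 genes tested, 0.108% passed the threshold of 0.05 in this comparison, 0.0758% higher and 0.0325% lower in female nuclei.

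Cycling nuclei, called from 12 cell division genes after thinning, numbered only 48. They held 2919, 539 and 797 CPM of Adamts19, against 2163, 1696 and 2340 in the other 1522 nuclei. The level was thus higher in pool 1 and lower in pools 2 and 3. The fitted difference was -0.89 (SE 0.24, adjusted p = 0.00542, edgeR), lower in 2 of 3 pools, in a comparison where 4.96% of 9176 genes were called, 3.13% higher and 1.83% lower. Without pool 2 it was -0.54 and without pool 3 it was -0.53, neither of which passed the threshold. It did not pass without the block (-0.57), with DESeq2 (-0.94) or with at least 3 cell division UMIs (-0.77) either. An unnamed cluster of 485 nuclei led by the cell division genes Neil3, Diaph3 and Knl1 was outside this comparison, at 54.3, 150 and 121 CPM. Nuclei with an EGFP UMI, 160 in all and each matched to a nucleus of its pool with none, held 1808, 1758 and 1186 CPM, against 1989, 1583 and 3235. That difference was -0.42 (SE 0.25, adjusted p = 0.711, edgeR), and without pool 3 it was 0.02. With EGFP, 0.0359% of 5572 genes were called, namely Sfrp2 and Ccn2. That count was 0 with close matches, without the block or without pool 3, and 41 without pool 1.

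To find genes that move with Adamts19, the valve interstitial-like nuclei of each pool were split into 3 groups of about equal size (low, middle and high) by their Adamts19 UMIs within 10 bins of UMI total, so that depth was alike. The high groups, 511 nuclei, held 4881 ± 846 CPM of Adamts19, the 548 nuclei between them 1181 ± 216, and the low groups, 511 nuclei, 79.2 ± 18. Summed counts of the high and low groups were tested with edgeR's quasi-likelihood test, with pool as a block and without Adamts19 itself. Of 8406 genes, 548 rose (6.52%) and 603 fell (7.17%), 13.7% in all. DESeq2 with the block called 447 of them and edgeR without the block 564. The median log2 difference over all genes was -0.0049. The groups followed the clusters in part: the first cluster made up 84.9% ± 1.63 of the high groups and 31.4% ± 3.70 of the low groups. When groups were taken inside each cluster, 515 genes passed, and 410 of the 1151 genes passed again in the same direction. Of the 1089 of them tested there, 1027 kept their direction. In the first cluster alone 969 of the 1151 were tested, 909 kept their direction and 413 passed again. In the second cluster alone 774 were tested, 613 kept their direction and 50 passed again.

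The largest rise was in Gabrg3, which encodes a subunit of the GABA-A receptor, at 216, 102 and 70.6 CPM in the high groups against 8.19, 5.22 and 4.43 in the low groups (log2 difference 4.52, SE 0.28). Pde11a, a phosphodiesterase for cyclic nucleotides, followed at 4.30 (SE 0.24), the syntrophin gene Sntg1 at 4.16 (SE 0.16) and the zinc finger gene Zfp804b at 4.12 (SE 0.26). Htr2a, a serotonin receptor, rose by 3.46 and Egflam, which encodes the matrix protein pikachurin, by 3.28. Each of these genes was also called when the groups were taken inside clusters, with differences of 1.86 to 3.32. They were called in the first cluster alone as well, but none of them was tested in the second cluster alone. The high and low ranges of the pools did not overlap for any of them.

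Minar2 rose from 9.22, 1.74 and 11.1 CPM in the low groups to 70.8, 68.8 and 83.8 in the high groups, a difference of 3.30 (SE 0.33), and of 1.95 inside clusters. It is the gene that follows Adamts19 on the same strand, and reads that run on from one gene into the next cannot be told apart here from reads of a separate transcript. Rmst rose by 2.90 (SE 0.12), from 87.0, 131 and 155 to 832, 735 and 1054 CPM. Egfem1, Dync1i1, Gm830, LOC118567348, Opcml, Negr1 and Esyt3 completed the 15 largest rises, at 2.70 to 3.34. Rmst, Pcdh15 and Rnf43 also lead the first cluster, whose share differed between the groups. Inside clusters Rmst still rose by 1.55 and Rnf43 by 0.95.

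The largest fall was in Col8a1, which encodes a short-chain collagen and stood at 4.99, 6.88 and 0 CPM in the high groups against 116, 36.5 and 173 in the low groups (-4.47, SE 0.38). Itgbl1, an integrin beta-like secreted protein, fell by 3.43 from 516, 352 and 438 CPM to 40.9, 49.9 and 26.5. Col8a2 fell by 3.32, Rgs7 by 3.14, Cemip, a hyaluronan-degrading protein, by 3.10, Thbs4, a thrombospondin, by 3.04 and Vgll3 by 2.98. Acan, the gene of the large cartilage proteoglycan aggrecan, fell by 2.92, from 61.4, 73.1 and 28.8 CPM to 11.0, 5.16 and 2.20. Ism1 and the guidance factor Sema3a fell by 2.88 and 2.76. Inside clusters Col8a1, Itgbl1, Rgs7, Cemip and Ism1 still passed, while Sema3a did not, at -0.86, and Col8a2, Thbs4, Vgll3 and Acan were too low to be tested there.

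Among 18 genes that feed back on or modulate Wnt signalling, 13 could be tested, 8 rose and 3 fell, where 6.52% of all tested genes rose and 7.17% fell. The median log2 difference of the list was 0.81, against -0.0049 over all genes. Targets that Wnt signalling switches on stood among the risers: Axin2, a scaffold of the complex that destroys beta-catenin, rose from 26.6, 24.4 and 39.8 CPM to 101, 70.5 and 68.3 (1.55, SE 0.24). Lef1, a nuclear partner of beta-catenin, rose from 183, 167 and 232 CPM to 511, 430 and 500 (1.37, SE 0.11). Rnf43 rose by 2.26 and its relative Znrf3 by 0.61, and both encode ligases that remove Wnt receptors. The stem cell receptor Lgr5 rose by 1.95, the secreted Wnt inhibitor Wif1 by 2.31, Apcdd1 by 1.06 and Nkd2 by 0.81. Nkd1 and Dkk3 did not pass, at 0.57 and 0.20.

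The 3 genes that fell on this list were also Wnt modulators. Sfrp2, a secreted inhibitor, fell from 751, 785 and 243 CPM to 83.8, 143 and 41.9 (-2.75, SE 0.14). Its relative Sfrp1 fell by 0.94 and Lgr6 by 1.91, so the Lgr5 and Lgr6 receptor genes moved in opposite directions. Inside clusters Rnf43, Wif1 and Lef1 (0.47) still rose and Sfrp2 (-1.03) still fell. Axin2, at 0.71 (adjusted p = 0.121, edgeR), Lgr5, Nkd2, Znrf3, Apcdd1, Sfrp1 and Lgr6 did not pass there.

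**Figure D3:**
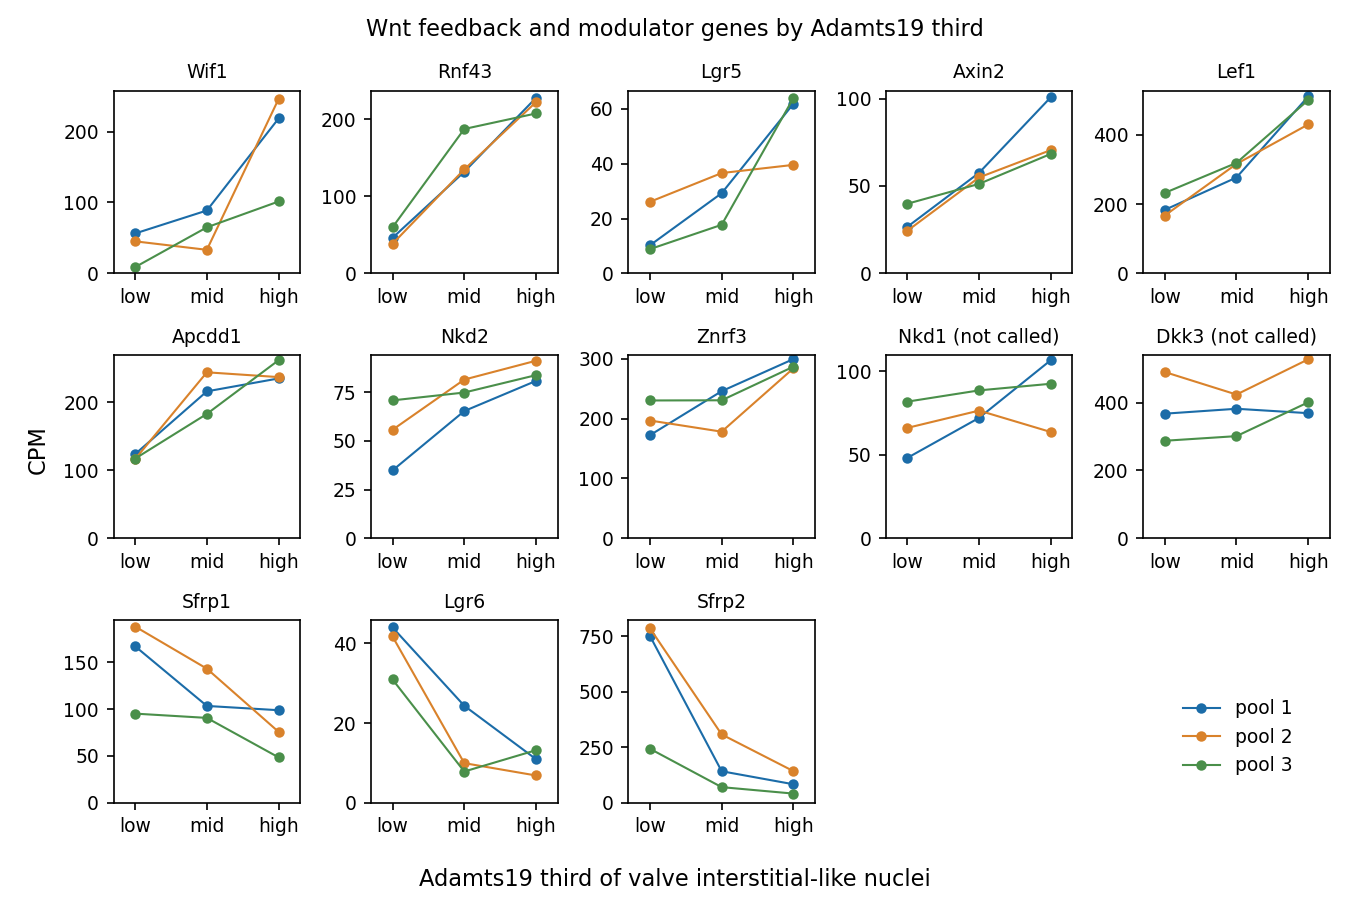
Levels (CPM) of the 13 tested Wnt feedback and modulator genes in the low, middle and high Adamts19 groups of valve interstitial-like nuclei, 1 line per pool. Axin2, Lef1 and Rnf43 lie higher in the high than in the low groups of all 3 pools, and Sfrp2 falls from 751, 785 and 243 CPM to 83.8, 143 and 41.9 CPM.

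Of 15 tested fibrillar, fibril-associated, beaded and basement membrane collagens, 10 fell and 2 rose, beside 7.17% and 6.52% of all genes, with a median of -0.53. Col11a1 fell by 2.04, from 281, 251 and 283 CPM to 74.8, 60.2 and 50.7, Col12a1 fell by 1.32 and Col4a1 by 1.24. Col1a1, the main fibre-forming collagen, fell by 0.61, while Col9a1 and Col9a3, which coat cartilage fibrils, rose by 1.25 and 1.58. Inside clusters Col11a1, Col12a1 and Col9a1 still passed, whereas Col1a1 (-0.21) and Col9a3 did not.

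Of 12 tested proteoglycan and hyaluronan genes, 4 rose and 4 fell (6.52% and 7.17% over all genes), with a median of -0.23. Vcan, whose protein versican is the major proteoglycan of the valve and a known substrate of several ADAMTS proteases, rose from 1482, 1665 and 1686 CPM to 2964, 2980 and 2782 (0.90, SE 0.09). Hapln1, which links versican to hyaluronan, rose by 1.40, and the small proteoglycan genes Dcn and Lum by 0.89 and 1.06. Fmod and Ogn, of the same small leucine-rich family, fell by 1.94 and 2.07, and Hspg2, of the basement membrane, fell by 0.60. Vcan (0.25) and Ogn (-0.54) were not called inside clusters, while Hapln1, Dcn, Lum, Fmod and Hspg2 were.

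Among 16 elastic fibre and microfibril genes 4 fell and 2 rose, against 7.17% and 6.52% of all genes, and the median was -0.08. Eln, the gene of elastin, fell from 3603, 3367 and 1963 CPM to 1654, 1499 and 950.2 (-1.08, SE 0.08). Fbn1, the microfibril gene mutated in Marfan syndrome, fell by 0.99, Fbln5 by 1.01 and Ltbp2 by 1.03, while Fbln1 and Efemp1 rose by 0.62 and 2.05. Eln, Fbn1 and Fbln5 also passed inside clusters, and Fbln1 (0.35) and Efemp1 (0.85) did not. Of 9 tested contractile genes 7 fell and 0 rose, where 7.17% of all genes fell and 6.52% rose, with a median of -0.84. Among them were Acta2 at -0.84, Tagln at -1.18 and Tpm2 at -1.27. Inside clusters Acta2 (-0.46), Tagln, Tpm2 and Smtn still fell, and Myl9 and Tpm1 did not pass.

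**Figure D4:**
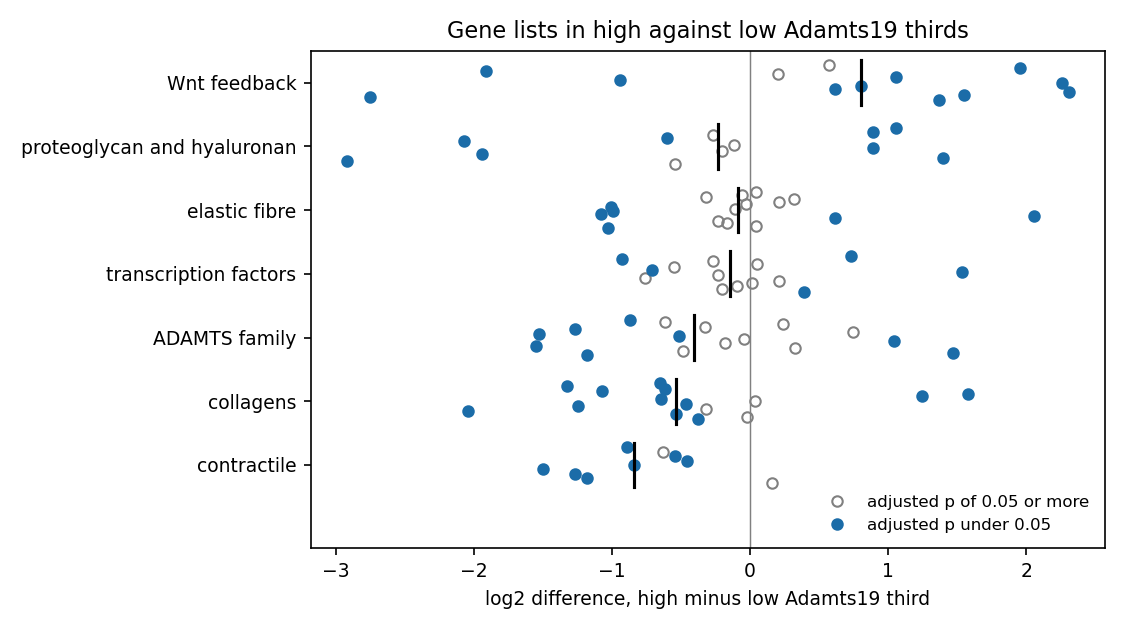
Log2 differences between high and low Adamts19 groups of valve interstitial-like nuclei for the tested genes of 7 lists; filled points passed the adjusted threshold of 0.05 and black bars are list medians. The Wnt list has a median of 0.81 and the contractile list one of -0.84, against -0.0049 over all 8406 genes.

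Members of the ADAMTS family did not move together. Of 16 tested relatives, 2 rose and 6 fell, with 6.52% and 7.17% of all genes doing so, and the median was -0.40. Adamts20 rose from 68.6, 83.5 and 84.1 CPM to 193, 237 and 201 (1.47, SE 0.15), and Adamts12 rose by 1.05. Adamtsl3 fell from 324, 331 and 358 CPM to 118, 89.5 and 128 (-1.55, SE 0.13). Adamts17, the closest relative of Adamts19 within the family, fell by 1.52, Adamts3 by 1.27, Adamts9 by 1.18, Thsd4 by 0.87 and Adamts2 by 0.51. Inside clusters Adamts20, Adamts12 and Adamtsl3 still passed, and the other 5 did not. Adamts5, which cuts versican, did not pass, at -0.04 over the whole class.

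Across classes, too, the relatives differed from Adamts19. Adamts20 held 148 ± 9.27 CPM in valve interstitial-like nuclei and at most 10.8 ± 2.55 in any of the other 8 classes. In fibroblast-like nuclei it stood at 7.31% of its valve interstitial-like level, against 19.0% for Adamts19, and in cardiomyocyte-like nuclei at 1.81% against 11.3%. Adamts17 was lowest in mesothelial-like and valve interstitial-like nuclei, at 30.3 ± 13.2 and 31.2 ± 9.09 CPM, and it stood at 170 ± 7.97 in fibroblast-like and 162 ± 14.3 in smooth muscle-like nuclei. These percentages compare each gene with itself, so gene length does not enter.

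Of 14 tested valve transcription factors 3 rose and 2 fell, beside 6.52% and 7.17% of all genes. Msx1 rose by 1.54, from 34.8, 33.1 and 22.1 CPM to 94.8, 89.5 and 75, Sox5, a partner of the cartilage factor Sox9, by 0.73 and Gata4 by 0.39, while Nfatc1 fell by 0.71 and Meox1 by 0.93. Sox9 itself, at 0.21, and Tbx20, at -0.09, did not pass. Klf2, the shear-responsive factor that has been linked to loss of Adamts19 in mice, stood at 24.6, 19.1 and 24.3 CPM in the low and 14.0, 22.4 and 8.82 in the high groups and did not pass (-0.55, adjusted p = 0.428, edgeR). Of 17 tested valve disease genes, 3 rose (Notch1, Gata4 and Axin2) and 5 fell (Smad6, Fbn1, Eln, Flna and Jag1), with the same shares of all genes beside them. Inside clusters Msx1 and Sox5 still rose, and Gata4, Nfatc1, Meox1, Notch1, Smad6, Flna, Jag1 and Axin2 did not pass. None of 4 tested cell cycle genes passed, and of 7 immediate early genes 1 did, Egr1, which fell by 0.89, where 13.7% of all genes passed.

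Among 14 tested adhesion and guidance genes 4 rose and 4 fell, against 6.52% and 7.17% over all genes. Slit2, a secreted guidance ligand, rose from 308, 379 and 500 CPM to 1393, 1450 and 1947 (2.07, SE 0.10), while its relative Slit3 fell from 288, 188 and 230 CPM to 71.8, 15.5 and 50.7 (-2.28, SE 0.18). Their receptor genes Robo1 and Robo2 did not pass, at -0.21 and -0.20. Pcdh15 rose by 1.91, and by 0.60 inside clusters, Nrxn3 by 1.18 and Tenm4 by 0.65. Lrrtm3, Pcdh7 and Pcdh9 fell by 0.91, 0.78 and 0.78.

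Markers of other cell types moved with the groups. Summed over 8 markers, cardiomyocyte transcripts stood at 1248 to 1838 CPM in the high groups and 2197 to 2701 in the low groups, and 4 of 8 markers fell (Ctnna3, Myh6, Myl2 and Tnnt2). Smooth muscle markers stood at 580 to 685 against 994 to 1008 CPM, endothelial markers at 154 to 189 against 318 to 354, and the sum was lower in the high group in 3 of 3 pools for each. Pericyte markers, at 401 to 438 against 493 to 586 CPM, and melanocyte markers, at 38.9 to 51.6 against 97.3 to 117, were lower in 3 of 3 pools too. Lymphatic endothelial markers, at 37.5 to 84.3 against 35.4 to 65.5 CPM, were higher in 3 of 3 pools. The sum of the markers of the class itself was higher in the high group in 3 of 3 pools, at 7172 to 8164 against 5094 to 6228 CPM. Of these 8 markers 4 rose (Col9a1, Hapln1, Postn and Vcan) and 2 fell (Col11a1 and Fmod). The fibroblast marker sum was higher as well, at 2692 to 4809 against 1571 to 2473 CPM, with 5 of 8 rising and 1, Abca8a, falling. Mitochondrial shares were 1.26% ± 0.396 in the high and 1.44% ± 0.486 in the low groups. The part of other cell types in the falls of contractile and basement membrane genes was not tested.

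Fibroblast-like nuclei with an Adamts19 UMI, 415 in all, were each paired with a fibroblast-like nucleus of the same pool and nearest UMI total that had none. Of 7981 genes, 41 rose (0.514%) and 39 fell (0.489%), 1.00% in all. Nkain3, whose protein binds a sodium pump subunit, stood at 604, 661 and 887 CPM with Adamts19 and 329, 199 and 424 without (1.18, SE 0.13). Erbb4, a neuregulin receptor, stood at 253, 290 and 603 against 179, 61.0 and 202 CPM (1.26, SE 0.21). Car8, Cadm1, Slc24a4, Zfp385b, Hpse2, Rgs6 and Ptprz1 rose by 1.33 to 1.79, and Tbx20, from the list of valve transcription factors, by 0.45.

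Tnc, the gene of the matrix protein tenascin C, rose from 245, 136 and 149 CPM to 375, 442 and 319 (1.06, SE 0.16). The falls included Rgs5, a pericyte marker, at -1.44, Pi16, a marker of a universal fibroblast state, at -1.17, Col8a1 at -1.16, Cxcl12 at -1.13, and the fibre genes Eln at -0.60 and Col1a1 at -0.46. Adamts5 fell by 0.67 and Thsd4 rose by 0.86. None of 9 tested Wnt genes passed, where 1.00% of all genes did. The cardiomyocyte markers Ttn and Ryr2 also rose, although the difference of Ttn was -0.01 with no mitochondrial limit, and the cardiomyocyte marker sum was higher in 3 of 3 pools, at 1863 to 2319 against 1428 to 1939 CPM. The sums of valve interstitial markers (3922 to 5360 against 3430 to 4552 CPM), endothelial markers (444 to 583 against 299 to 464) and glial markers (67.1 to 105 against 34.4 to 81.9) were also higher in 3 of 3 pools. Singly, 4 valve interstitial markers could be tested, of which 0 rose and 1, Col11a1, fell. Pericyte markers, Rgs5 among them, were lower in 3 of 3 pools, at 321 to 430 against 598 to 623 CPM. The part of these other cell types in the result was not tested.

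These fibroblast-like calls depended on pool 1 and on the block. Without pool 1 only 2 of the 80 genes passed. Without the pool block 0 of 7981 passed with edgeR, where 361 had an unadjusted p under 0.05, and DESeq2 with the block called 23. All 80 kept their direction in the fits that left out 1 pool, with DESeq2 and with close matches only. Those fits reuse nuclei of the main fit, so a kept direction is no separate support.

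Cardiomyocyte-like nuclei with and without an Adamts19 UMI were compared in the same way, a test added after the level in this class was seen. Each pair took the nearest UMI total, but the median totals stayed apart in pool 2, at 7185 with Adamts19 and 6164.5 without. Over 1020 pairs, 116 of 11234 genes rose (1.03%) and 36 fell (0.320%), 1.35% in all. DESeq2 with the block and edgeR without it each called 40 of the 152, and with close matches only 133 of the 152 were called again in the same direction. The largest rise was in the long non-coding RNA Gm20754, at 79.1, 81.1 and 50.9 CPM with Adamts19 and 1.85, 2.21 and 3.15 without (4.94, SE 0.24). Over whole classes Gm20754 did not follow Adamts19. It held 36.6 ± 11.7 CPM in cardiomyocyte-like, 24.6 ± 9.11 in smooth muscle-like and 1.09 ± 0.787 in valve interstitial-like nuclei. Fgf12, which modulates cardiac sodium channels, stood at 234, 125 and 114 against 8.51, 33.2 and 4.41 CPM (3.46, SE 0.25). Myl7 and Myl4, the myosin light chains of atrial muscle, rose by 2.17 and 1.84. Cpne5 rose by 2.40, Tbx5, a limb and heart transcription factor, by 1.56, and Ryr3, a calcium release channel, by 1.52.

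Of 15 tested adhesion and guidance genes 3 rose (Robo1, Robo2 and Slit2) and 1 fell (Lrrc4c), beside 1.03% and 0.320% of all genes, with a median of 0.14. Robo1 stood at 578, 544 and 400 CPM with Adamts19 and 182, 149 and 215 without (1.5, SE 0.10), Slit2 rose by 1.37 and Robo2 by 1.03. The valve matrix genes Vcan and Postn rose by 0.60 and 0.62, and Minar2, chosen after its values were seen, rose by 2.03, from 3.70, 2.77 and 2.52 CPM to 14.5, 11.8 and 11.2. Erc2, a protein of the presynaptic active zone, fell from 364, 298 and 262 CPM to 150, 128 and 124 (-1.19, SE 0.08), and Rspo3, a Wnt enhancer, by 1.24. None of the 8 cardiomyocyte markers was called, and both groups held about the same sum of them, at 47811 to 49508 against 47317 to 50087 CPM.

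**Figure D5:**
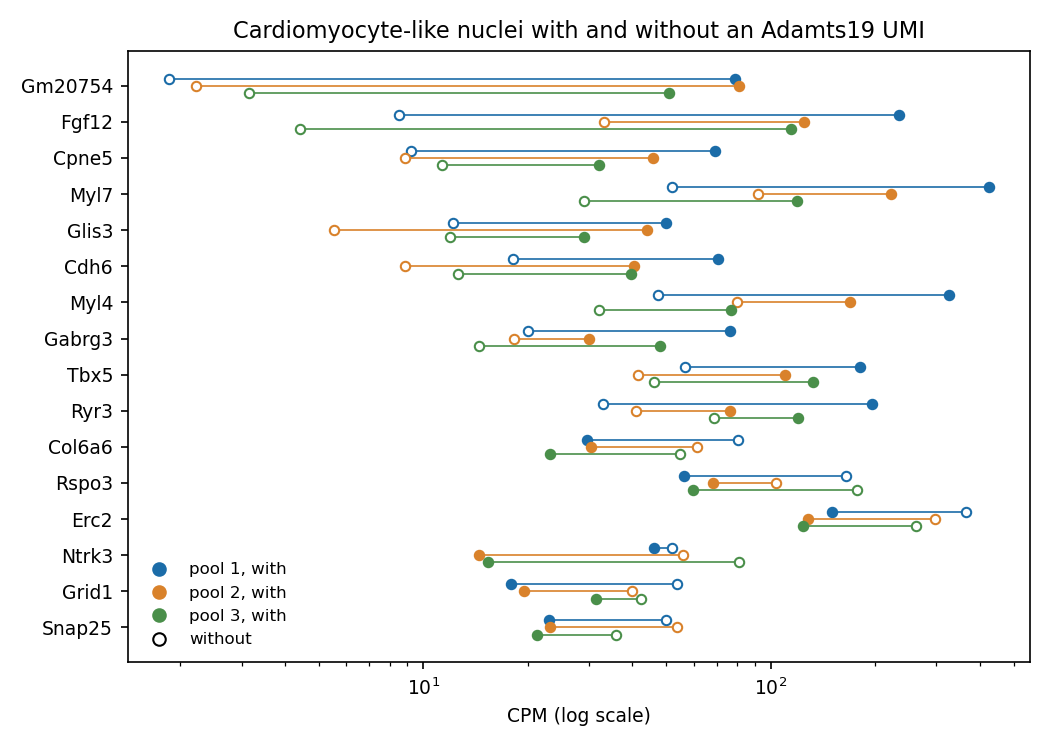
Levels (CPM, log scale) of 16 genes in cardiomyocyte-like nuclei with an Adamts19 UMI (filled points) and in as many matched nuclei without (open points), 1 line per pool; the first 10 are the largest rises and the last 6 the largest falls. Gm20754 moves from 1.85, 2.21 and 3.15 to 79.1, 81.1 and 50.9 CPM.

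The cluster mix of the 2 cardiomyocyte-like groups differed. The Ryr3 cluster made up 11.3% ± 1.92 of nuclei with an Adamts19 UMI and 5.24% ± 1.62 of those without, and the Erc2 cluster 16.5% ± 2.14 and 26.3% ± 3.06. With pairs made inside clusters 110 genes passed, 93 of the 152 among them in the same direction. All 149 of the 152 that could be tested there kept their direction, and Gm20754 (5.12), Fgf12 (3.09), Myl7 (2.01), Tbx5 (1.15) and Robo1 (1.11) were still called. The valve interstitial marker sum was 279 to 373 CPM with Adamts19 and 219 to 227 without, higher in 3 of 3 pools. In valve interstitial-like nuclei the same markers summed to 7172 to 8164 CPM in the high and 5094 to 6228 in the low groups. Pcdh15 did not pass, at 0.86 (adjusted p = 0.0791, edgeR), and Rmst and Rnf43 were too low to be tested. Haemoglobin and other erythroid markers stood at 174 to 2667 CPM with Adamts19 and 208 to 398 without. Neuron markers stood at 28.4 to 34.0 against 41.6 to 57.3 CPM and smooth muscle markers at 2962 to 3237 against 3230 to 3419, each lower in 3 of 3 pools. Pericyte markers, at 379 to 421 against 336 to 352 CPM, were higher in 3 of 3 pools. The part of valve, blood and other cell type transcripts in these calls was not tested.

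The 3 gene lists shared members in both directions. Of the risers in fibroblast-like nuclei, 13 had also risen in valve interstitial-like nuclei, 31.7% of the fibroblast-like list and 2.37% of the valve list. Of the fallers 21 had also fallen there, 53.8% and 3.48% of the lists, among them Eln, Col1a1, Col4a1, Col8a1, Col11a1 and Fbln5. Of all genes tested in valve interstitial-like nuclei, 6.52% rose and 7.17% fell. Of the cardiomyocyte-like risers 34 had, 29.3% of that list and 6.20% of the valve list, among them Gabrg3, Zfp804b, Slit2, Lef1, Vcan and Minar2, and of the fallers 8 had, 22.2% and 1.33%. Genes called in opposite directions numbered 11 between the valve and fibroblast-like lists, with Tnc, Thsd4 and Ptprz1 among them, and 20 between the valve and cardiomyocyte-like lists. The genes that rose in both the fibroblast-like and cardiomyocyte-like comparisons were Negr1, Pde7b and Rgs6. Negr1, a cell adhesion gene, was 2.81 higher with Adamts19 in valve interstitial-like, 1.05 in fibroblast-like and 1.70 in cardiomyocyte-like nuclei, and it rose in all 3 comparisons, as did Pde7b and Rgs6.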

How the data were processed

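The submitters deposited, per the file headers and values, raw counts: 1 whole number of UMIs per gene and nucleus for 36167 features in each of 3 pools. Their processing notes name Cell Ranger 7.0.1 and 7.1.0 and the genome GRCm39; other steps are not given in the sources used here. The gene, its lists and the filters were chosen with earlier results of these data known.

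Nuclei with at least 1000 UMIs, 300 genes and at most 5% of UMIs from 13 mitochondrial genes were kept. Scrublet's automatic threshold marked 0 doublets in each pool, so the highest-scoring 0.8% per 1000 deposited nuclei were removed instead. Nuclei were clustered with scanpy 1.11.5 and leidenalg 0.10.2 (Python 3.11.15; 2000 variable genes, 30 principal components, 15 neighbours, resolution 1), without Adamts19, Scx, EGFP, cell division, sex-calling and mitochondrial genes. A cluster took the name of a class when at least 4 of 8 markers were found in 10% of nuclei and 2-fold higher (pseudocount 5 CPM), and stayed unnamed where 2 or more markers of another class stood among its top 10 genes. An earlier pass had used 3 markers, and this rule was set after its clusters were seen.

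Raw counts were summed per pool and group and tested with edgeR 4.0.16 in R 4.3.3 (quasi-likelihood, TMM, filterByExpr, pool as a block because both groups of nuclei come from the same pool), p-values adjusted by Benjamini-Hochberg across every gene in the fit, and a threshold of 0.05. DESeq2 1.42.0 was an alternative. The fit was also tested on simulated data. A standard error is the log2 difference divided by the root of the F statistic. Levels are pool sums in CPM with exact Poisson 95% intervals, and both these and the Wilson intervals cover counting error only. A count of 0 allows up to 3 counts.

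Named genes are Adamts19, members of the lists and markers, up to 15 risers and 10 fallers per test (adjusted p under 0.05, 3 of 3 pools in the same direction, mean of at least 20 CPM), and the 10 genes most like Adamts19 over classes. Alternatives changed the nucleus filters, doublets, resolution, matching, clusters, normalization, gene filter, tool and block, and left out each pool. Nuclei above 5% mitochondrial UMIs were left out of the main values.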

Additional observations from a re-analysis of the deposited data

Results flagged for a closer look

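Among the largest risers and fallers of the fibroblast-like and cardiomyocyte-like tests, 5 genes were picked out because the difference between nuclei with and without an Adamts19 UMI had one sign in all 3 pools of fibroblast-like nuclei and the opposite sign in all 3 pools of cardiomyocyte-like nuclei. The difference between the classes was not tested for any of them. Values are log2 differences with edgeR's adjusted p. Col4a4, a basement membrane collagen, stood at -1.24 in fibroblast-like and 1.46 in cardiomyocyte-like nuclei, both called, a fibroblast minus cardiomyocyte difference of -2.70. Robo1, the Slit receptor gene, stood at -0.42 (adjusted p = 0.0938) and 1.5, a difference of -1.92. Tnc stood at 1.06 and -0.71 (adjusted p = 0.257), a difference of 1.78. Col6a6, a beaded filament collagen, stood at 0.34 (adjusted p = 0.196) and -1.25, a difference of 1.59. Dlg2, a synaptic scaffold gene, stood at 0.43 (adjusted p = 0.0889) and -1.04, a difference of 1.47. Outside those risers and fallers, 4 more were called in both classes in opposite directions, and they were chosen after their values were seen. Aff2 stood at -0.68 in fibroblast-like and 0.37 in cardiomyocyte-like nuclei, Epha3 at -0.82 and 0.93, Gria1 at 0.95 and -0.59, and Nhsl2 at -0.84 and 0.62.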

How the results depend on the processing

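Called genes in the high against low valve interstitial-like groups, 1151, became 515 with groups made inside clusters, 546 in the first cluster alone, 62 in the second alone, 447 with DESeq2 and 564 without the replicate block, and 789 to 1048 without 1 pool. All 1151 kept their direction with DESeq2 and without the block, but both fits use the same summed counts, so this is no separate support. The fibroblast-like count of 80 became 163 with close matches, 125 with doublets kept, 186 with no mitochondrial limit, 200 and 220 at resolutions 0.5 and 2, 167 from 500 UMIs, 140 with no gene filter, 23 with DESeq2 and 0 without the block, and 2 to 111 without 1 pool. The cardiomyocyte-like count of 152 became 265 at resolution 0.5 and 40 both with DESeq2 and without the block, and 105 to 228 without 1 pool.

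The female minus male difference in Adamts19 was -0.032 with no mitochondrial limit, -0.0031 at resolution 0.5, -0.012 without the block and -0.17 to 0.14 without 1 pool. The cycling difference did not pass with 3 cell division UMIs (-0.77), doublets kept (-2.30), resolution 2 (-2.27), DESeq2 (-0.94) or no block (-0.57), and was -1.68 to -0.53 without 1 pool. With doublets kept and at resolution 2, pool 3 held only 2 cycling nuclei, with 0 Adamts19 UMIs. The EGFP difference was -0.75 to 0.023 without 1 pool. In the second cluster alone Myl9 (0.22), Lum (-0.056), Meox1 (0.18), Adamts2 (0.19) and Adamts3 (0.015) changed sign, as did Col1a1 (0.0079) and Nfatc1 (0.027) in the first, and Ttn in fibroblast-like nuclei with no mitochondrial limit (-0.014). The cause was not tested.

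Unthinned shares were 68.5%, 44.2% and 45.4% in the 3 highest classes. The fibroblast-like level was 416 CPM from 500 UMIs, 411 at resolution 2 and 401 as a mean over nuclei, and the cardiomyocyte-like level 199 with no mitochondrial limit. The 3 pools form 1 group, the classes were rebuilt from markers, and a nucleus with no Adamts19 UMI at these depths may still express the gene.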

Other observations

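Among nuclei left out for mitochondrial shares above 5%, Adamts19 stood at 141, 160 and 185 CPM in pools 1 to 3, and among those marked as doublets at 264, 281 and 397, against 275, 281 and 334 in all analysed nuclei. Slc27a6, a fatty acid transporter gene that lies upstream of Isoc1, held 68.9 ± 26.7 CPM in valve interstitial-like, 10.2 in fibroblast-like and 0.342 in cardiomyocyte-like nuclei. Isoc1, the nearest upstream neighbour, held 11.1, 13 and 13.2 CPM in the same classes.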
